A study of Mus musculus with 9 samples.

Results

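The enzymes that make serine and asparagine and that move one-carbon units through folate were examined in mouse corneal epithelial cells kept at 3 oxygen levels. The group was defined by name, with earlier results of these data known. It holds 10 genes of the 26445 entries in the deposited table, namely Phgdh, Psat1, Psph, Asns, Shmt1, Shmt2, Mthfd1, Mthfd1l, Mthfd2 and Aldh1l2. Each name matched a single entry. The cells were a wild-type cultured line labelled iCell-0093a, and the labels give neither its way of immortalization nor the length of the exposure. Polyadenylated RNA was sequenced from 3 libraries at 21% oxygen, 3 at 8% and 3 at 1%, with no other treatment named for any group. Whether the replicates came from different cultures is not stated, and each p-value therefore reflects spread among these libraries that may be technical. In bulk RNA, fewer cells of a type and less RNA per cell cannot be told apart.

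Serine is built from a glycolytic intermediate in 3 steps, catalysed in turn by Phgdh, Psat1 and Psph. Serine hydroxymethyltransferases then split serine into glycine and a one-carbon unit carried by tetrahydrofolate. The folate enzymes act on the carried unit, which serves the synthesis of purines and thymidylate. Mitochondria (Shmt2, Mthfd2, Mthfd1l, Aldh1l2) and cytosol (Shmt1, Mthfd1) each hold a set of these enzymes. Asns forms asparagine from aspartate and glutamine. In mammalian cells the transcription factor ATF4, the effector of the integrated stress response, is known to induce Asns, the serine synthesis enzymes and the mitochondrial folate enzymes when amino acids run short.

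Promoter sequences are shown for Asns, whose window holds the ATF4-type motif searched for, and for Shmt2 and Mthfd2, the members with the most negative estimates at 1% oxygen. They are RefSeq sequences on GRCm38.p6, the 250 bases before the annotated start, written on the strand of the gene (the minus strand in all 3). Capitals mark matches to TGATGNAA, the core of the C/EBP-ATF response element. The windows are chr6:7693210-7693459 for Asns, chr10:127522445-127522694 for Shmt2 and chr6:83317605-83317854 for Mthfd2.
Asns: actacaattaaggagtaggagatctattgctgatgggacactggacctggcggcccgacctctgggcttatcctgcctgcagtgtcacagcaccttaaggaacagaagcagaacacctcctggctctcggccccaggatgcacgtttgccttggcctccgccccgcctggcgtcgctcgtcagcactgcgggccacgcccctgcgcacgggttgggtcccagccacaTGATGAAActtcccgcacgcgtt
Shmt2: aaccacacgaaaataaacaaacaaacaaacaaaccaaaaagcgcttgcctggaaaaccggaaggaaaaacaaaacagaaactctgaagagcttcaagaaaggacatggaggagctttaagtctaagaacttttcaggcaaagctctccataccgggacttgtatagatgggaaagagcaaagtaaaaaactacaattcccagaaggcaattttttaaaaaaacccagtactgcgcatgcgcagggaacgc
Mthfd2: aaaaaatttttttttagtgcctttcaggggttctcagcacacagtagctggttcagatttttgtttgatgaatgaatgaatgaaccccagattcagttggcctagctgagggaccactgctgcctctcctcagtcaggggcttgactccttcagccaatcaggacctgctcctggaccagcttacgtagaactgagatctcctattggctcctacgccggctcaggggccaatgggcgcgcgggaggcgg
The search covered 300 bases around each start, 250 before and 50 after, on both strands. Of the 10 members, 9 had an entry, with 2 alternative starts for Psat1. TGATGNAA was found in 1 of these 10 windows, that of Asns, where TGATGAAA begins at position -23 from the RefSeq start. Across all 32851 promoter windows, TGATGNAA occurred in 3.97%. CACGTG, the E-box bound by MYC and related factors, occurred in 7.15% of all windows and in none of the 10. Absence from a window says nothing of sites outside it.

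Library-wide facts that bear on these values were as follows. The FPKM sums (fragment counts divided by transcript length and by the total mapped in a library) lay between 317704 and 333178, with a share of 6.02% to 8.52% from genes encoded in mitochondria. Sequencing depth is unknown because the table holds no counts. Simple epithelial keratins were abundant (means of 572 FPKM for Krt8 and 582 for Krt18), and of 6 basal and corneal epithelial markers Krt14, Klf5 and Aldh3a1 averaged 67.2, 17.2 and 3.03 FPKM. The other 3 did not pass the filter, with Pax6 at no more than 0.0208 FPKM, Krt15 at 0.116 and Trp63 at 0.836. Of 7 stromal markers in the table, Vim, S100a4 and Pdgfra averaged 857, 750.03 and 7.64 FPKM, while Col1a1 reached at most 1.02, Col1a2 0.275, Dcn 0.0684 and Lum 0.0208. The 3 endothelial markers reached at most 0.116 FPKM, and the leukocyte marker Ptprc 0.0101. Of the 5 leukocyte markers in the table, 2 were tested and both were higher at 8% than at 21% oxygen (Csf1r, 1.32 against 0.445 FPKM, limma adjusted p = 0.00658, and Cd68, 43.3 against 25.4, adjusted p = 0.0123), and of 5 simple epithelial markers Krt18 and Krt19 were higher (adjusted p = 0.0159 and 0.027). Vim was higher at 8% as well (log2 fold change 0.32, limma adjusted p = 0.00846), the 1 stromal marker called of 3 tested. Their part in the enzyme values was not tested. The 21% libraries were uneven in transcripts of S phase genes. The summed FPKM of 24 DNA replication and S phase genes was 258, 184 and 489 in 21% replicates 1, 2 and 3, against 174 to 178 at 8% oxygen and 222 to 271 at 1%.

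In levels per length, which can be compared between genes, the serine synthesis enzyme Phgdh stood highest in every library and the cytosolic Shmt1 lowest of the members above 1 FPKM. The order Phgdh, then Shmt2 and Asns, then Psat1, Mthfd2, Mthfd1l, Mthfd1, Psph, Shmt1 and Aldh1l2 was the same in all 9 libraries except for the exchange of Shmt2 and Asns. Shmt2 exceeded Asns in 3 of 3 libraries at 21% oxygen, in 0 of 3 at 8% and in 1 of 3 at 1%. The summed FPKM of the 10 genes lay between 644 and 738 at 21% oxygen, 484 and 535 at 8%, and 484 and 551 at 1%. The 21% libraries thus did not overlap with the others in this sum, and the 8% and 1% libraries overlapped.

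**Figure D1:**
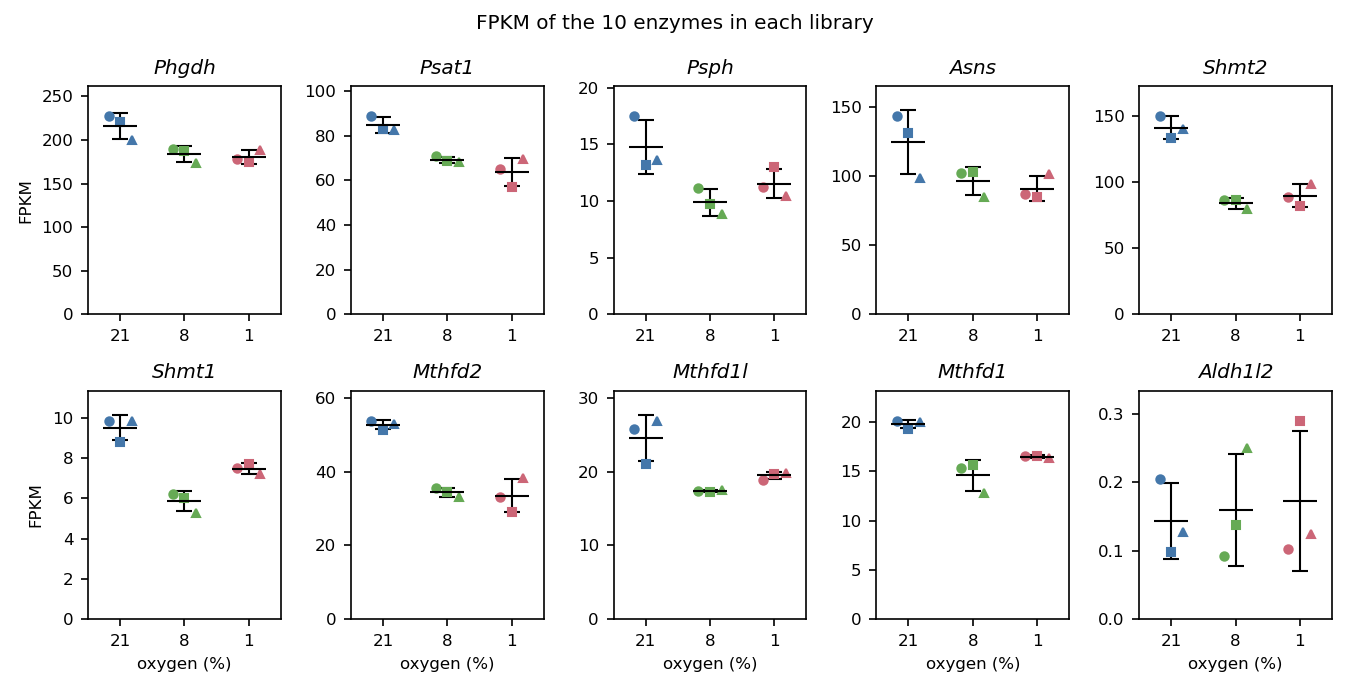
FPKM (vertical axes, from 0) of each of the 10 enzymes at 21%, 8% and 1% oxygen (horizontal axes). Circles, squares and triangles are replicates 1, 2 and 3, and bars show mean and SD (n = 3). In Shmt2 the 21% libraries lie between 133 and 149.9 and all others at or below 98.6, whereas Aldh1l2 overlaps at every level.

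The comparison of 8% with 21% oxygen showed lower levels of nearly the whole group. Tested by limma on log2(FPKM + 1) across 11856 genes, 8 of the 9 tested members fell at an adjusted p under 0.05 (Benjamini-Hochberg over all genes) and none rose. In the same comparison 14.9% of all tested genes were called lower and 8.38% higher, 23.3% in all. The median log2 fold change was −0.47 over the 9 members and −0.04 over all genes tested. In 8 of the 9 the 8% libraries lay below every 21% library, which held for 25.5% of all genes (15.4% lay above). The members not called lower were Asns, and Aldh1l2, which did not reach the 1 FPKM in 3 libraries required for testing. Calls over all genes numbered 1772 lower and 993 higher, and 1338 and 1334 after median-ratio rescaling, under which 7 members were called lower.

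Shmt2, the mitochondrial serine hydroxymethyltransferase (ENSMUSG00000025403, chromosome 10, 127517123 to 127522444, GRCm38), measured 149.9, 133 and 139.6 FPKM in the 21% libraries, 86.1, 86.1 and 79.1 at 8% oxygen and 88.4, 81.6 and 98.6 at 1%. Every low-oxygen library lay below every 21% library. Its level fell from 141 ± 8.57 to 83.8 ± 4.02 FPKM at 8% oxygen (SD, n = 3, limma adjusted p = 0.00145, log2 fold change −0.74 with an SE of 0.0811), or to 59.5% of the 21% mean. This was the 201st most negative estimate of the 11856. Mthfd2, the mitochondrial dehydrogenase and cyclohydrolase that oxidizes the methylene group (ENSMUSG00000005667, chromosome 6, 83305691 to 83325908), measured 53.9, 51.4 and 53.0 FPKM at 21% oxygen, 35.7, 34.6 and 33.3 at 8% and 33.3, 29.2 and 38.2 at 1%. The groups at 21% and at lower oxygen were again separate, and at 8% it fell by 0.60 on the log2 scale (SE 0.0889, limma adjusted p = 0.00381). Mthfd1l, the mitochondrial synthetase that releases formate (ENSMUSG00000040675, chromosome 10, 3973118 to 4167081), measured 25.8, 21.1 and 26.9 FPKM at 21% oxygen, 17.4, 17.2 and 17.5 at 8% and 18.9, 19.7 and 19.9 at 1%. It fell by 0.47 at 8% (SE 0.0848, limma adjusted p = 0.00756), with 21% replicate 2 nearest to the low-oxygen libraries.

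The cytosolic enzymes fell as well. Shmt1, the cytosolic serine hydroxymethyltransferase (ENSMUSG00000020534, chromosome 11, 60788104 to 60811718), measured 9.86, 8.79 and 9.87 FPKM at 21% oxygen, 6.23, 6.04 and 5.30 at 8% and 7.51, 7.74 and 7.22 at 1%. The 3 groups did not overlap, and 8% oxygen was lowest (log2 fold change −0.62 against 21%, SE 0.0732, limma adjusted p = 0.0019). Mthfd1, the cytosolic enzyme with dehydrogenase, cyclohydrolase and synthetase activities (ENSMUSG00000021048, chromosome 12, 76255298 to 76319803), measured 20.2, 19.3 and 20.0 FPKM at 21% oxygen, 15.3, 15.6 and 12.8 at 8% and 16.5, 16.6 and 16.4 at 1%. It showed the same order of groups and fell by 0.42 at 8% (SE 0.0733, limma adjusted p = 0.0067). The 3 mitochondrial and 2 cytosolic folate enzymes were called lower at 8% oxygen in each of the 16 alternative settings run, with adjusted p of at most 0.0312. Without 21% replicate 3, the library with the highest S phase sum, Shmt1 gave −0.59 and Mthfd1 −0.42, and all 9 tested members were called lower. That left 21% replicates 1 and 2 with S phase sums of 258 and 184 FPKM, against 174 to 178 at 8%. The part of this difference in the enzyme values was not tested. In exons, Shmt1 shares 184 bases with Smcr8 on the opposite strand, which rose at 8% (log2 fold change 0.23, limma adjusted p = 0.0463), and whether reads were counted by strand is not stated.

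Among the serine synthesis enzymes, Phgdh and Psat1 had estimates nearer to 0 at 8% oxygen than any of the 5 folate enzymes above, and Psph did not. Phgdh, the dehydrogenase of the first step (ENSMUSG00000053398, chromosome 3, 98313170 to 98339990), measured 228, 220.4 and 199 FPKM at 21% oxygen, 190.2, 188 and 174 at 8% and 179, 174 and 189 at 1%. Its 8% and 1% libraries mixed, and 21% replicate 3 stood nearest to them. It fell to 85.2% of the 21% mean at 8% (log2 fold change −0.23, SE 0.0686, limma adjusted p = 0.0441). This call failed in 12 of 16 alternatives, among them the removal of any single library but 21% replicate 3 (adjusted p up to 0.138). Psat1, the aminotransferase of the second step (ENSMUSG00000024640, chromosome 19, 15904678 to 15947337), measured 88.9, 83.0 and 82.6 FPKM at 21% oxygen, 70.8, 68.6 and 68.1 at 8% and 65.1, 56.8 and 69.4 at 1%. No low-oxygen library reached the 21% range. At 8% it fell by 0.29 (SE 0.0753, limma adjusted p = 0.0271). Removing 21% replicate 1, any single 8% library or the expression filter ended this call (adjusted p up to 0.0838).

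Psph, the phosphatase of the last step (ENSMUSG00000029446, chromosome 5, 129765558 to 129787449), measured 17.5, 13.2 and 13.6 FPKM at 21% oxygen, 11.2, 9.72 and 8.82 at 8% and 11.2, 13.0 and 10.4 at 1%. 21% replicate 1 was the highest library by a wide margin. At 8% it fell by 0.53 (SE 0.128, limma adjusted p = 0.0219). Removing 21% replicate 1, 8% replicate 2, 8% replicate 3 or the expression filter ended this call (adjusted p up to 0.0741). Its exons share 452 bases with Cct6a on the opposite strand, a chaperonin gene that fell too (111 ± 11.5 against 85.1 ± 2.06 FPKM, SD, n = 3, limma adjusted p = 0.00971), and the part of shared reads in the Psph values was not tested.

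Asns (ENSMUSG00000029752, chromosome 6, 7675169 to 7693254) measured 144, 131 and 98.5 FPKM at 21% oxygen, 102, 103 and 84.7 at 8% and 86.7, 84.6 and 102 at 1%. 21% replicate 3 lay inside the range of the low-oxygen libraries, so the groups overlapped. The estimate at 8% was −0.35 (95% interval −0.68 to −0.02, limma adjusted p = 0.116), and without 21% replicate 3 it was −0.51 with an adjusted p of 0.0209. Aldh1l2, the mitochondrial formyltetrahydrofolate dehydrogenase, lay between 0.0915 and 0.29 FPKM in the 9 libraries and overlapped at all levels. Its cytosolic counterpart Aldh1l1 averaged at most 0.012 FPKM in any group.

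**Figure D2:**
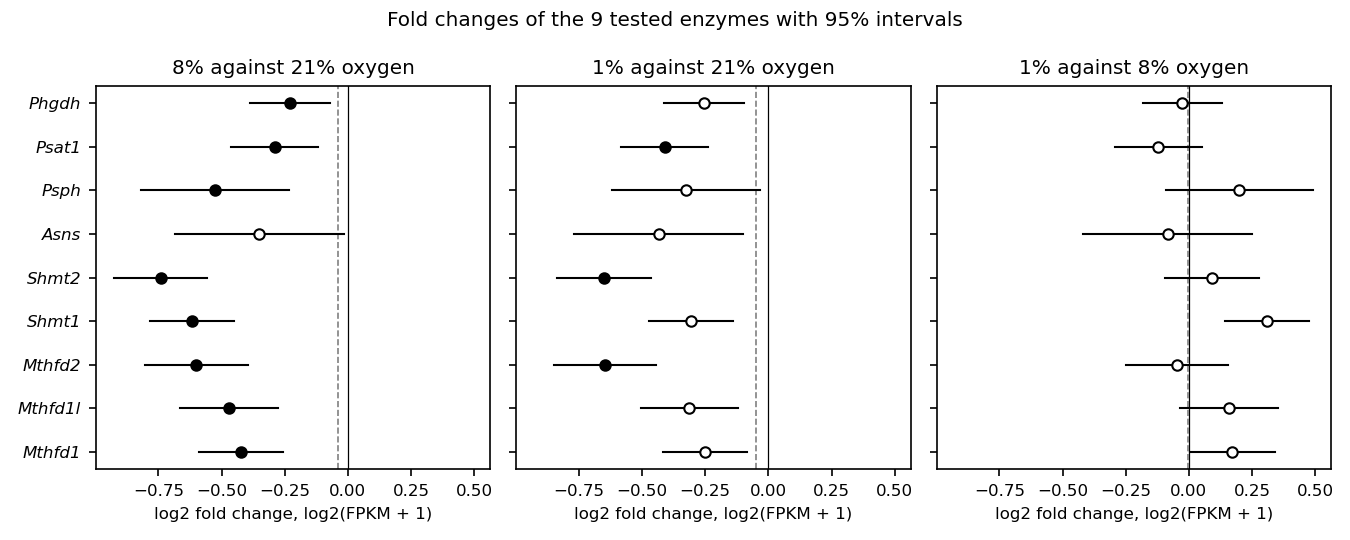
Log2 fold change on the log2(FPKM + 1) scale (horizontal axes) with 95% intervals for the 9 tested enzymes in the 3 comparisons. Filled points passed an adjusted p of 0.05, open points did not, and the dashed line is the median of all 11856 genes. At 8% against 21% oxygen all points but Asns are filled, at 1% against 21% only Shmt2, Mthfd2 and Psat1 are, and at 1% against 8% none is.

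At 1% against 21% oxygen, which uses the same 21% libraries, fewer members were called, but this count does not measure the size of the changes. The adjustment runs over all genes, of which 23.3% were called at 8% and 4.24% at 1%. Phgdh was called at 8% (−0.23) and not at 1% (−0.26), with the same SE of 0.0686. Asns, Psat1 and Mthfd2 also had more negative estimates at 1% than at 8%. Those of Psph, Shmt1, Shmt2, Mthfd1 and Mthfd1l were less negative. Limma called 3 of the 9 tested members lower and none higher, where 2.89% of all genes were called lower and 1.35% higher, 4.24% in all. Each of the 9 estimates lay below 0 (60% of all genes), and their median was −0.33 against −0.05 over all genes. In 8 of them the 1% libraries lay below every 21% library, which held for 19.2% of all genes (9.06% lay above). The called genes were Shmt2, Mthfd2 and Psat1. Shmt2 fell to 89.5 ± 8.60 FPKM (−0.65, SE 0.0811, adjusted p = 0.00819), or 63.6% of the 21% mean, and kept its call in all 16 alternatives with adjusted p up to 0.0486. Mthfd2 fell to 33.6 ± 4.54 FPKM (−0.65, SE 0.0889, adjusted p = 0.0132). Removing 21% replicate 1 or 1% replicate 1, or fitting the 6 compared libraries alone, ended this call (adjusted p up to 0.0605). Psat1 fell to 63.7 ± 6.41 FPKM (−0.41, SE 0.0753, adjusted p = 0.0275) and lost its call in 8 of 16 alternatives (adjusted p up to 0.0959), those without 21% replicate 1 or 2, 8% replicate 1 and 1% replicate 1 or 2 among them.

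The remaining 6 members were lower at 1% oxygen without passing the test. The estimates were −0.43 for Asns (adjusted p = 0.125), −0.33 for Psph (0.173), −0.31 for Mthfd1l (0.0742), −0.31 for Shmt1 (0.054), −0.26 for Phgdh (0.0726) and −0.25 for Mthfd1 (0.0894). The 95% interval of each excluded 0 before adjustment, from −0.77 to −0.10 for Asns and from −0.47 to −0.14 for Shmt1. Over all genes, 2758 of 11856 had an unadjusted limma p under 0.05. Without 21% replicate 3, 5 members were called, with Asns (adjusted p = 0.029) and Phgdh (0.0301) added. Without 21% replicate 1 or without 1% replicate 1 the count fell to 1. Over all genes 343 were called lower and 160 higher, and 184 and 219 after median-ratio rescaling, under which the same count of 3 members was lower.

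Between 1% and 8% oxygen limma called none of the 9 tested members, with 2 at an unadjusted p under 0.05, while 0.059% of all genes were called lower and 0.0675% higher, 0.127% in all, and 2247 genes had an unadjusted p under 0.05. Estimates were positive for 5 members and negative for 4, with a median of 0.09. Shmt1 stood at 128% of its 8% mean (log2 fold change 0.31, 95% interval 0.14 to 0.48, limma adjusted p = 0.0994) and Mthfd1 at 113% (0.17, interval 0.004 to 0.34, adjusted p = 0.255). In these 2 and in Mthfd1l the 1% libraries lay above all 8% libraries, which held for 16.3% of all genes (16.8% lay below). The mitochondrial Shmt2 (0.09, interval −0.09 to 0.28) and Mthfd2 (−0.05, interval −0.25 to 0.16) and the serine synthesis enzymes Phgdh (−0.03, interval −0.18 to 0.13) and Psat1 (−0.12, interval −0.29 to 0.05) overlapped between both levels.

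Mitochondrial and cytosolic counterparts were compared within each library, a ratio that in FPKM does not depend on library scaling. Shmt2 exceeded Shmt1 by 15.2, 15.1 and 14.1 times in FPKM at 21% oxygen, 13.8, 14.2 and 14.9 times at 8% and 11.8, 10.5 and 13.7 times at 1%. In FPKM all 1% libraries lay below all 21% libraries, and 8% and 21% overlapped. With 1 FPKM added before log2, the 8% ratios lay below the 21% ratios (3.63 ± 0.0398 against 3.75 ± 0.054, SD, n = 3, exact permutation p = 0.10). On the log2(FPKM + 1) scale the ratio at 1% was 0.34 lower than at 21% (3.41 ± 0.18 against 3.75 ± 0.054, SD, n = 3), with p = 0.10 in a two-sided exact permutation test, the smallest that 3 against 3 libraries can give. Mthfd2 exceeded Mthfd1 by 2.68, 2.66 and 2.65 times at 21% oxygen, 2.33, 2.21 and 2.60 times at 8% and 2.01, 1.76 and 2.34 times at 1%. Both low levels lay below 21%, with log2 differences of −0.18 and −0.40 (exact permutation p = 0.10 for each, n = 3). The ratio of Mthfd1l to Mthfd1 lay between 1.09 and 1.36 in all libraries and overlapped at every level (exact permutation p of 0.5 or more, n = 3). For 1% against 8% oxygen the first 2 ratios overlapped (exact permutation p = 0.2 and 0.3, n = 3). None of the 9 ratio comparisons passed Benjamini-Hochberg adjustment, where the lowest value was 0.225, and the design could not have given a smaller raw p.

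**Figure D3:**
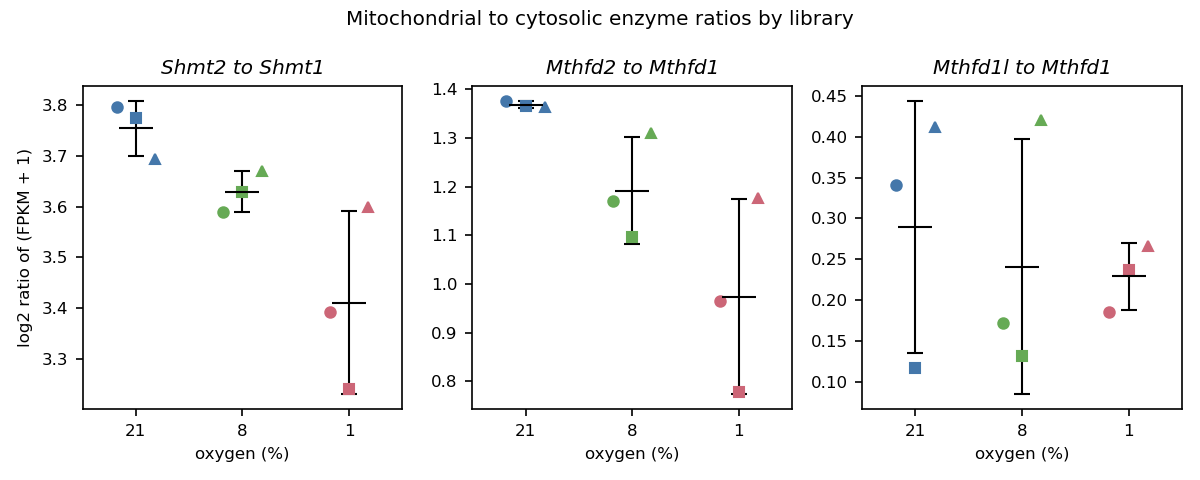
Log2 ratio of (FPKM + 1) of the mitochondrial to the cytosolic enzyme (vertical axes, each with its own range not starting at 0) by oxygen level. Circles, squares and triangles are replicates 1, 2 and 3, with mean and SD (n = 3). The ratio of Mthfd2 to Mthfd1 is 1.37 on average at 21% oxygen, 1.19 at 8% and 0.97 at 1%, while Mthfd1l to Mthfd1 overlaps throughout.

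Libraries of the same level differed in which members were high. In 1% replicate 3, 6 of the 9 tested members (Phgdh, Psat1, Asns, Shmt2, Mthfd2 and Mthfd1l) had the highest value of their group, while Shmt1, Mthfd1 and Psph had the lowest. In 8% replicate 3, 8 of the 9 had the lowest value. Pearson r over the 9 libraries ranged from 0.505 to 0.976 over the 36 pairs of tested members (median 0.811), a description that includes the difference between oxygen levels. Shmt2 and Mthfd2 were the most alike pair. By the same measure among 7236 genes averaging 5 FPKM or more, Asns was most like Phgdh (0.97), Syngr1 (0.97), Slc6a9 (0.97) and Fyn (0.97). Psat1 was most like Slc12a9, Atf6b, Aar2 and Tars (0.97 for each), and Mthfd2 most like Gpt2 (0.99), Phf10 (0.99), Cd3eap (0.99) and Slc7a5 (0.98).

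Regulators of the integrated stress response and known targets of that response were set beside the enzymes. Of 19 tested, limma called 6 lower and none higher at 8% oxygen (median −0.41), 3 lower and none higher at 1% (median −0.43) and none between 1% and 8% (6 at an unadjusted p under 0.05), against the shares of all genes given above. Atf4 mRNA measured 199.7, 119 and 257 FPKM at 21% oxygen, 169, 83.1 and 162 at 8% and 167, 81.2 and 184 at 1%. Its groups overlapped and neither difference from 21% passed (adjusted p = 0.436 and 0.578). In each group replicate 2 was lowest, and a fit with a replicate block called Atf4 lower at 8% (limma adjusted p = 0.0245) but not at 1%. Sesn2, a stress-induced inhibitor of mTORC1, fell at 8% by 0.81 on the log2 scale (11.8 ± 0.587 against 6.33 ± 0.841 FPKM, SD, n = 3, limma adjusted p = 0.00274), and Eif2s1, the alpha subunit of the initiation factor eIF2, fell by 0.31 (adjusted p = 0.00518). Chac1, a glutathione-degrading enzyme, fell from 230.1 ± 19.6 to 159 ± 11.3 FPKM at 1% (−0.53, limma adjusted p = 0.0153), and Cebpg, a bZIP partner of ATF4, by 0.63 (adjusted p = 0.0369). Chac1 was called lower at 8% too (−0.33, limma adjusted p = 0.021), a call lost in 4 of 16 alternatives (adjusted p up to 0.0706). The pseudokinase Trib3 fell at both levels (−1.40 and −1.20, adjusted p = 0.00385 and 0.0249). At 1%, removing 21% replicate 1, 1% replicate 1 or 1% replicate 2 ended the calls of Chac1, Cebpg and Trib3 (adjusted p up to 0.0691, 0.136 and 0.0941). Removing 21% replicate 2 also ended those of Cebpg and Trib3, and removing 8% replicate 1 or 3 that of Cebpg.

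**Figure D4:**
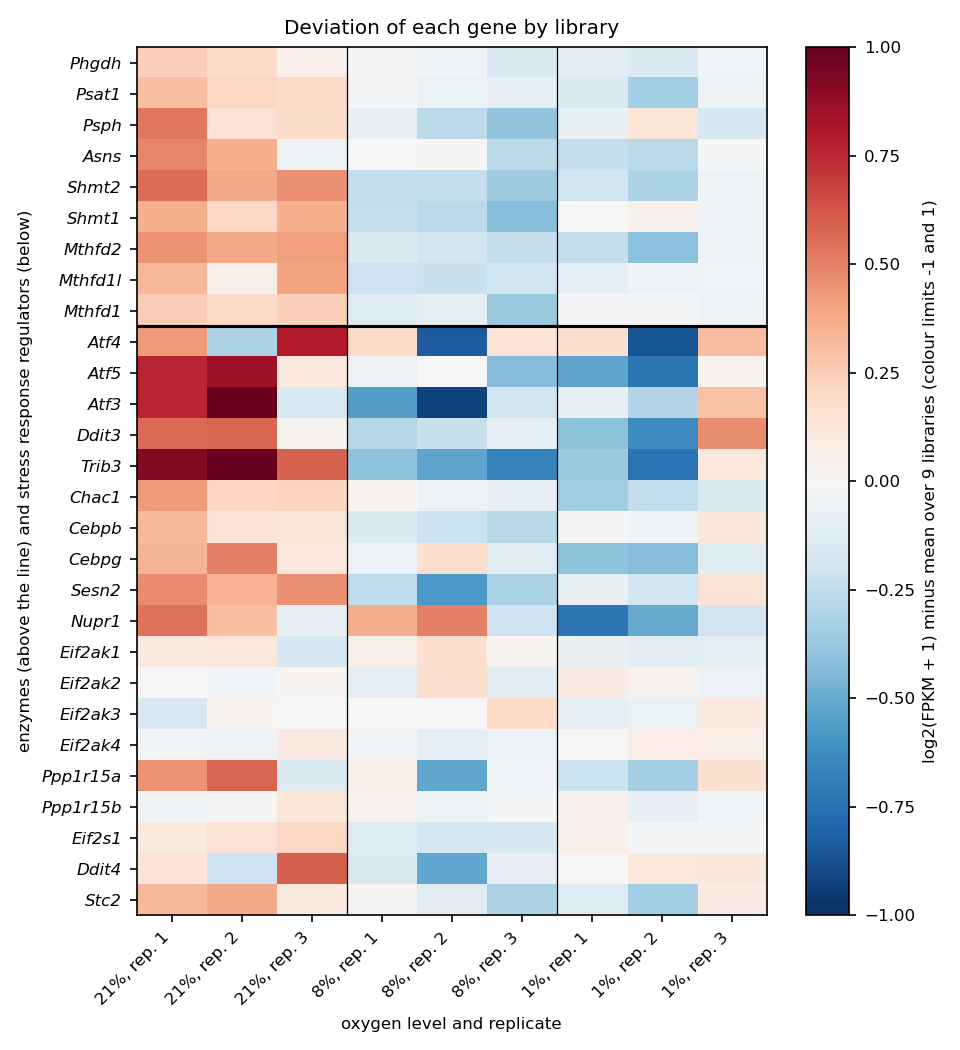
Deviation of log2(FPKM + 1) from each gene's mean over 9 libraries (colour, limits −1 and 1) for the 9 tested enzymes, above the line, and 19 stress response genes, below it, in columns by oxygen level and replicate. The enzymes are above their mean in all 21% libraries except Asns in replicate 3. Atf4 is lowest in replicate 2 of each level (119, 83.1 and 81.2 FPKM).

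The lists of neighbouring reactions that follow are read against 14.9% of all genes called lower and 8.38% higher at 8% oxygen, and 2.89% and 1.35% at 1%. Counts at an unadjusted limma p under 0.05 are read against 4504 of 11856 genes at 8% against 21%. The same number was 2758 at 1% against 21% and 2247 at 1% against 8%. In folate interconversion and transport 4 of 12 tested genes were called lower and none higher at 8% oxygen (median −0.27), none at 1% against 21% (median −0.12, 4 at an unadjusted p under 0.05) and none at 1% against 8% (limma, 3 at an unadjusted p under 0.05). Ggh and Fpgs, which remove and add the glutamate tail of folates, fell by 0.60 and 0.54 at 8% (adjusted p = 0.00217 and 0.00401), and so did the mitochondrial folate carrier Slc25a32 by 0.54 (adjusted p = 0.0234). The Slc25a32 call failed in 6 of 16 alternatives, among them the removal of 21% replicate 1 or any single 8% library (adjusted p up to 0.0747). Tyms, which makes thymidylate, stood at 2.23 ± 0.227 FPKM at 8% against 4.23 ± 2.11 at 21% (SD, n = 3) and did not pass (limma adjusted p = 0.0915). In Tyms 21% replicate 3 was the highest library (6.61 FPKM), as it was in the S phase sum.

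Among 10 tested entries for serine and glycine supply and breakdown 2 fell at 8%, a share near the 14.9% of all genes, and 1 at 1% oxygen (2.89% of all genes), and none rose. Gcsh, the lipoyl carrier of glycine cleavage, stood at 37.5 ± 0.611 FPKM at 21% oxygen and fell to 27.8 ± 2.31 at 8% and 30.1 ± 1.39 at 1% (SD, n = 3, limma adjusted p = 0.00503 and 0.0456). The 1% call failed in 13 of 16 alternatives, among them the removal of any single library but 8% replicate 3 (adjusted p up to 0.159). Gcat, which breaks down threonine to glycine, fell by 0.67 at 8% (adjusted p = 0.0137), and a second entry of that name, with an identifier of its own, leaves its level uncertain. Gldc, the glycine decarboxylase, averaged at most 0.0693 FPKM. The mitochondrial serine carrier Sfxn1 stood at 11.4 ± 1.29, 11.1 ± 0.349 and 10.9 ± 0.449 FPKM at 21%, 8% and 1% oxygen.

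Of 18 purine and pyrimidine genes 7 were called lower and none higher at 8% (median −0.28, against 14.9% and 8.38% of all genes). None was called at 1% against 21% (median −0.17, limma, 8 at an unadjusted p under 0.05, against 2758 of 11856 genes). Gart, which consumes formyl-tetrahydrofolate in purine synthesis, fell by 0.55 (24.5 ± 1.13 against 16.5 ± 1.68 FPKM, SD, n = 3, limma adjusted p = 0.00327). Adsl, of the same pathway, fell by 0.66 and Umps, of pyrimidine synthesis, by 0.44 (adjusted p = 0.0033 and 0.00401). S phase genes numbered 4 lower of 24 at 8% (median −0.70), a share near the 14.9% of all genes. Estimates lay below 0 in 23 of the 24 (55.8% of all genes), with 11 at an unadjusted p under 0.05 by limma (4504 of 11856 genes). At 1% against 21% none was called (median −0.14, limma, 1 at an unadjusted p under 0.05). Nor was any at 1% against 8% (median 0.40), where in 21 the 1% libraries lay above all 8% libraries (16.3% of all genes). The part of the S phase level in these values was not tested. Among the 4 called at 8%, Mcm10, Pola1 and Mcm7 fell by 0.75, 0.93 and 0.74 (adjusted p = 0.0197, 0.0257 and 0.028), and removing 8% replicate 1 or 2 ended each call. Removing 21% replicate 1 or 8% replicate 3 also ended those of Pola1 and Mcm7 (adjusted p up to 0.0813).

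In the methionine cycle and transsulfuration 4 of 13 fell at 8% oxygen (14.9% of all genes) and 1 at 1% (2.89%), with medians of −0.03 and −0.14 against −0.04 and −0.05 over all genes. Cth, which forms cysteine from cystathionine, fell by 0.90 at both levels (adjusted p = 0.0104 and 0.0339, the latter lost in 11 of 16 alternatives, the removal of any library but 21% replicate 3 among them, up to 0.129). The spermidine synthase Srm fell by 0.55 at 8% (adjusted p = 0.00904) and Apip, of methionine salvage, by 0.55 (adjusted p = 0.0344, lost in 9 of 15 alternatives, up to 0.102, among them the removal of 21% replicate 3, 8% replicate 1 or 2, or any 1% library). Among 17 enzymes of aspartate, asparagine, glutamate and proline 5 fell and 1 rose at 8% (14.9% and 8.38% of all genes), and 2 fell and 1 rose at 1% (2.89% and 1.35%). The alanine aminotransferase Gpt2 stood at 20.2 ± 1.38 FPKM at 21% oxygen and fell to 12.1 ± 0.821 and 11.7 ± 1.20 (SD, n = 3, −0.69 and −0.74 on the log2 scale, limma adjusted p = 0.0022 and 0.00738), and the proline pathway enzyme Aldh18a1 fell by 0.49 and 0.44 (adjusted p = 0.00598 and 0.0294). Glul, glutamine synthetase, was the member that rose, from 44.1 ± 5.61 to 83.4 ± 10.9 and 77.3 ± 9.03 FPKM (0.90 and 0.80, limma adjusted p = 0.00332 and 0.0205). At 1%, removing 21% replicate 1, 1% replicate 1 or 1% replicate 2 ended both the Aldh18a1 and the Glul call (adjusted p up to 0.117 and 0.0835), and removing 21% replicate 2 or 8% replicate 1 that of Aldh18a1.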

How the data were processed

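Gene-level FPKM were deposited by the authors as 1 table with a column for each of 9 libraries. Per the labels' protocols, RNA was extracted with TRIzol and libraries were prepared with a stranded polyadenylated RNA kit. Reads were processed with StringTie 1.3.4d, HISAT2 2.0.4, cutadapt 1.9.1 and FastQC 0.11.8 against build mm10, per the submitters' processing notes. The annotation release and strand setting were not stated. No counts or depths are in the table, so no counting interval is given.

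The 11856 genes reaching 1 FPKM in 3 or more libraries entered a fit of log2(FPKM + 1) by limma 3.58.1 (R 4.3.3), with all 9 libraries in a model of group means and a mean-variance trend. This scale understates changes of low genes. Tests were two-sided and adjusted by Benjamini-Hochberg within a comparison. The procedure was tested on simulated data. Coordinates are 1-based, from GENCODE M21 on GRCm38, to which 26378 of 26445 identifiers matched.

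The members and the 7 gene lists were chosen with earlier results of these data known. Named genes are all members, Atf4, up to 3 called genes with the smallest adjusted p per list and comparison, and the 4 genes most like Asns, Psat1 and Mthfd2. The alternatives were another pseudocount (0.1), 2 other filters, 2 rescalings, a fit to the 6 libraries compared, a replicate block and leaving out each library.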

Additional observations from a re-analysis of the deposited data

How the results depend on the processing

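All 9 tested members kept a negative estimate against 21% oxygen, at 8% and at 1%, in each of the 16 alternatives. The count of members lower at 8% was 5 without the filter on low values, where 26445 genes were tested, and 5 to 9 with a library left out. At 1% against 21% it was 1 in the fit to the 6 libraries compared and 1 to 5 with a library left out. At 1% against 8% no member was called in any alternative. The log2 ratio of Shmt2 to Shmt1 at 8% against 21% went from −0.125 to −0.0567 with a pseudocount of 0.1 FPKM. Over all genes, calls at 8% against 21% numbered 2765, with 1606 in the fit to 6 libraries and 1477 to 2981 with a library left out. At 1% against 21% there were 503, with 222 without the filter, 333 after quantile normalization, 72 with the replicate block, 64 in the fit to 6 libraries and 63 to 878 with a library left out. At 1% against 8% there were 15, with 4 without the filter, 56 at a mean of at least 5 FPKM, 1 with the replicate block, 484 in the fit to 6 libraries and 1 to 433 with a library left out. Some settings differ by construction in the number of samples or of genes tested, and beyond that the cause was not tested. Whether libraries with equal replicate numbers share a culture or batch is not stated. Deviations of same-numbered libraries correlated between −0.303 and 0.095 across genes, which cannot settle it. With the replicate block 7 members were lower at 8% and 2 at 1%, and Atf4, not called otherwise, was called at 8% (adjusted p = 0.0245).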
